A study of Mus musculus with 3 samples.

Results

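A set of 10 genes that FGF-ERK signaling induces, and most of which then restrain it, was read in 3 myoblast lines derived from mouse-mouse chimeras. These 10 genes, of 35562 genes in the tables, were chosen by name and function: the Sprouty genes Spry1, Spry2 and Spry4, the Spred genes Spred1 and Spred2, the MAP kinase phosphatases Dusp4 and Dusp6, and the transcription factors Etv1, Etv4 and Etv5. Myoblasts divide and later fuse into muscle fibers, and they arise from satellite cells, the muscle stem cells. The lines, numbered 66, 67 and 72, share the genotype Dmdmdx; Pax7-nGFP and a CRISPR/Cas9 edit of dystrophin made in the iPSCs before blastocyst injection. The Pax7-nGFP transgene marks PAX7-expressing cells with nuclear GFP per the study's methods. The iPSCs were reprogrammed from male embryonic fibroblasts with a STEMCCA cassette, and the study used hosts in which satellite cells can be ablated. Which chimera and host genotype each line came from, at what age and whether after tamoxifen, is absent from its labels. The 3 lines therefore form 1 condition with 1 poly-A RNA library per line, and no test between conditions exists. Values are TPM, the estimated count of a transcript divided by its effective length and scaled to 1000000 per library, summed over the transcripts of a gene, and they are given with the SD over lines (n = 3).

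When a fibroblast growth factor binds its receptor tyrosine kinase, adaptor proteins activate Ras, which starts the Raf, MEK and ERK kinase cascade. ERK activity then switches on genes whose products act back on the cascade. Sprouty and Spred proteins are membrane-associated inhibitors of Ras-Raf signaling, DUSP4 and DUSP6 remove the activating phosphates from ERK in the nucleus and in the cytoplasm, and ETV1, ETV4 and ETV5 are ETS-family transcription factors that carry out part of the response. In muscle, FGF signaling is known to favor myoblast proliferation over differentiation, and Spry1 is known for a role in the return of satellite cells to quiescence. None of these roles was measured here.

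Levels of cell type markers were read beside the label. The study describes the sequenced myoblasts as purified by FACS, so markers tied to that sort are no independent check of identity. Of 12 myoblast markers, 11 reached 10 TPM in each of the lines. They included Pax7 (136, 143 and 154 TPM in lines 66, 67 and 72) and Myod1 (791, 702 and 579 TPM). All 12 genes of a list of differentiated muscle were lowest in line 66 and highest in line 72, with a summed level of 2281, 3010 and 4012 TPM in lines 66, 67 and 72. Myog, which marks the start of differentiation, had 168, 222 and 310 TPM. All 10 cell cycle genes of another list were lowest in line 66, with sums of 990.5, 1301 and 1293 TPM, and Mki67, a marker of dividing cells, had 35.6, 64.1 and 54.3 TPM. In bulk RNA, fewer cells of a type and less RNA per cell cannot be told apart. Fibroblast markers summed to 277, 351 and 488 TPM, most of it from Col3a1 (145, 205 and 270 TPM) and Prrx1 (86.9, 77.7 and 133 TPM), while Lum and Dpt, 2 of the 12 genes, had a count of 0 in every line. Of the 12 genes, 3 had the order of lines 66, 67 and 72 from low to high, and the list's median log2(TPM + 1) was 1.26, 1.35 and 0.84. Endothelial markers summed to at most 1.83 TPM and immune markers to at most 4.60 TPM. The pluripotency list summed to at most 11.6 TPM, nearly all of it Pou5f1, and 6 of its 8 genes had at most 3 counts in every line. Total estimated counts ranged from 66972426 to 73274315 per library.

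The 250 bases before the start sites of Spry1, Spry2 and Dusp6 are shown here, since these are the lowest and the highest of the 10 genes by mean TPM and the gene with the widest spread between lines. They were taken from RefSeq (GRCm38.p6), whose start site for each of these genes coincides with the start of an abundant transcript in GENCODE M21. Of the 10 genes, 7 were matched there, with 9 start sites. Lines are written 5′ to 3′ on the strand of the gene, and capitals mark matches to any of the motifs named after the sequences. Spry1 lies at chr3:37639697-37639946 (plus strand), Spry2 at chr14:105896820-105897069 (minus strand) and Dusp6 at chr10:99262981-99263230 (plus strand).
Spry1: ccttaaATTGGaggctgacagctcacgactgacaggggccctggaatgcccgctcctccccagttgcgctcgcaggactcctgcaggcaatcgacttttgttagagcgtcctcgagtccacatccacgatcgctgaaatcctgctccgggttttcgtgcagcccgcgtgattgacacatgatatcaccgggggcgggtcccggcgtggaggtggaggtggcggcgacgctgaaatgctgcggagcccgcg
Spry2: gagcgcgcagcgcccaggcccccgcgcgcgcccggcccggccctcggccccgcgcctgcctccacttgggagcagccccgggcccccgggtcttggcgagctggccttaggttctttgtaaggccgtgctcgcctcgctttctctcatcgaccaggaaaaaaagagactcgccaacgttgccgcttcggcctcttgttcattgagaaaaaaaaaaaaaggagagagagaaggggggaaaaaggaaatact
Dusp6: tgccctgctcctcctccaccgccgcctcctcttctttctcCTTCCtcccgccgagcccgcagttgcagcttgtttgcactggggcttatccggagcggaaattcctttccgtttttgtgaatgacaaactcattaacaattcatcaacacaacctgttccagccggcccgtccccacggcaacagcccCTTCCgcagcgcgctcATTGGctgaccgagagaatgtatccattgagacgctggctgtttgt

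Motifs were searched on both strands in the 250 bases before 32851 start sites. The capicua octamers TGAATGAA (1.08% of all windows) and TGAATGGA (1.01%), the ETS site CCGGAAGT (2.88%), the AP-1 site TGANTCA (6.75%) and the CRE TGACGTCA (1.55%) occurred in none of the 9 windows of these genes. The shorter ETS core GGAAG, which CCGGAAGT contains, occurred in 64.1% of all windows and in 5 of these 9. Dusp6 held it from -210 to -206 and from -62 to -58, counted back from -1 at the base before the start site, and in both places it reads CTTCC on the printed strand. The CCAAT motif occurred in 33.8% of all windows and in 4 of these 9, both windows of Etv5 included. It lay from -46 to -42 in Dusp6 and from -244 to -240 in Spry1, where it reads ATTGG on the printed strand, while the Spry2 window held none of the searched motifs. The E-box CAGCTG, found in 13.0% of all windows, occurred at Etv5 alone among these genes. These matches describe letters in a window and not binding.

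The feedback genes were expressed at moderate to high levels throughout. Of the 10 genes, 9 had at least 10 TPM in every line, a level that 31.5% of the detected genes reached. Spry1 was the exception. The median log2(TPM + 1) of the 10 genes was 5.55, 5.37 and 5.55 in lines 66, 67 and 72, where the median of the detected genes was 0.89, 0.85 and 0.91. Together they summed to 547, 476 and 489 TPM. By family, the Dusp genes summed to 142 ± 20.9 TPM, the Sprouty genes to 137 ± 14.9 TPM, the Etv genes to 131 ± 12.0 TPM and the Spred genes to 94.4 ± 4.82 TPM (SD, n = 3 each). The order of these sums depends on transcripts annotated as noncoding. With coding transcripts alone, Etv4 averaged 31.2 TPM in place of 71.7 TPM and Dusp6 39.4 TPM in place of 53.9 TPM.

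**Figure D1:**
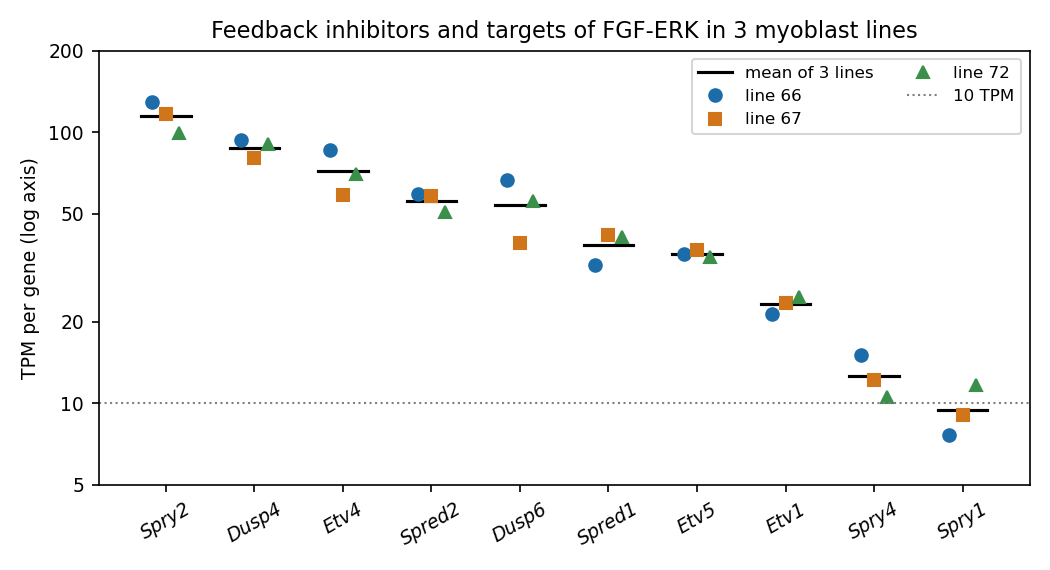
Level of each of the 10 genes in TPM (log axis) in lines 66 (circles), 67 (squares) and 72 (triangles); black bars are means of the 3 lines and the dotted line marks 10 TPM. Spry2 is the highest gene in every line with at least 99.8 TPM, and Spry1 lies around the dotted line, between 7.64 and 11.7 TPM.

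The order of mean levels ran from Spry2 through Dusp4, Etv4, Spred2, Dusp6, Spred1, Etv5, Etv1 and Spry4 to Spry1. The place of Etv4 depends on its noncoding transcripts: with coding transcripts alone it averaged 31.2 TPM, below Spred2 (56.0 TPM), Dusp6 (39.4 TPM), Spred1 (38.4 TPM) and Etv5 (35.6 TPM). Only 3 of the 9 neighbouring pairs in the TPM order had ranges that did not overlap over the 3 lines, namely Spry2 above Dusp4, Etv5 above Etv1 and Etv1 above Spry4. Spred2 and Dusp6 differed in mean by a ratio of 1.04 and stood in that order in 1 line. Between 969 and 13494 estimated counts lay behind each value, so the mean of the upper and lower arms of the exact Poisson interval (95%) was at most 6.35% of the value. This covers counting error only, since PCR copies without molecular identifiers are not independent molecules. Estimated counts lay within 0.01 of a whole number in every line for 8 of the 10 genes, that is, few of their reads were divided with transcripts of other genes. The exceptions were Spry2, at most 0.30 away, and Etv1, at most 0.15 away.

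Among the Sprouty genes, which encode cytoplasmic inhibitors recruited to the membrane on growth factor signaling, Spry2 prevailed. Spry2 (chromosome 14, 105891947 to 105896819 on GRCm38) had 129, 117 and 99.8 TPM in lines 66, 67 and 72 (115 ± 14.7 TPM) and ranked above 94.5% of the detected genes. Spry4 (chromosome 18, 38586247 to 38601415) had 15.1, 12.2 and 10.6 TPM (12.6 ± 2.27 TPM). Spry1 (chromosome 3, 37639947 to 37644598) had 7.64, 9.04 and 11.7 TPM (9.45 ± 2.04 TPM). Spry2 thus made up 85.0%, 84.6% and 81.8% of the Sprouty TPM. Spry2 and Spry4 were highest in line 66 and lowest in line 72, whereas Spry1 was lowest in line 66 and highest in line 72. The differentiated muscle genes had the same order of lines as Spry1, and so did Etv1 (21.4, 23.5 and 24.7 TPM). The share of all genes with this order was not computed. Whether the share of differentiating cells bears on these levels was not tested.

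The Spry2 to Spry1 ratio was 16.9, 12.9 and 8.56 in lines 66, 67 and 72 (log2 ratio 3.62 ± 0.49, SD, n = 3), so Spry2 was the higher gene in 3 of 3 lines. The Spry4 to Spry1 ratio was 1.98, 1.35 and 0.908, with Spry4 higher in lines 66 and 67 and Spry1 higher in line 72, and its mean log2 value of 0.43 was below its SD of 0.56. On the CPM scale, where length is not divided out, Spry4 (2572 counts) was above Spry1 (1400 counts) in line 72 as well, and the mean log2 ratio was 1.44. An exact sign-flip test over 3 lines cannot give a two-sided p below 0.25, so no p is given for these ratios. The 95% counting intervals of Spry1 ran from 7.16 to 8.13 TPM in line 66, from 8.51 to 9.60 TPM in line 67 and from 11.1 to 12.3 TPM in line 72. A gene of unknown function on the opposite strand, Gm42922, overlaps Spry1 and had 21, 22 and 16 counts in the 3 lines. The intervals of Spry1 did not overlap, although the spread between repeated cultures of 1 line is not known from these data.

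The Spred genes encode relatives of Sprouty with an EVH1 domain, and SPRED1 is known to bring neurofibromin, the Ras inactivator encoded by Nf1, to the membrane. Spred2 (chromosome 11, 19924375 to 20024026) had 59.1, 58.3 and 50.7 TPM (56.0 ± 4.66 TPM). Spred1 (chromosome 2, 117121374 to 117182279) had 32.3, 41.7 and 41.2 TPM (38.4 ± 5.30 TPM). Spred2 was above Spred1 in every line, by a ratio of 1.83, 1.40 and 1.23 in lines 66, 67 and 72, and the ranges of the genes did not overlap. Line 66 was thus the highest for Spred2 and the lowest for Spred1. Nf1 itself, named here after its values were seen, had 22.5, 19.9 and 19.1 TPM.

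Of the phosphatase genes, Dusp4 (chromosome 8, 34807297 to 34819894), whose product acts in the nucleus, had 93.3, 80.1 and 90.2 TPM (87.9 ± 6.91 TPM). Dusp6 (chromosome 10, 99263231 to 99267489), whose product acts on ERK in the cytoplasm, had 66.8, 38.9 and 55.9 TPM (53.9 ± 14.0 TPM). Both were highest in line 66 and lowest in line 67. Dusp6 was below Dusp4 in every line, with a log2 ratio of -0.48, -1.04 and -0.69. Dusp6 showed the widest spread of the 10 genes, with its highest line 1.72 times its lowest. Its coefficient of variation ranked above that of 94.3% of the 8428 genes averaging 10 TPM or more.

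The Etv genes encode the PEA3 group of ETS factors. Etv4 (chromosome 11, 101769742 to 101785371) had 86.1, 58.9 and 70.1 TPM (71.7 ± 13.7 TPM). Etv5 (chromosome 16, 22381309 to 22439719) had 35.7, 36.9 and 34.5 TPM (35.7 ± 1.18 TPM). Etv1 (chromosome 12, 38779380 to 38870484) had 21.4, 23.5 and 24.7 TPM (23.2 ± 1.66 TPM). Etv5 was the steadiest of the 10 genes, with a coefficient of variation of 3.31%, whereas Etv4 was high in line 66 and low in line 67, as Dusp6 was. The log2 ratio of Etv5 to Etv4 was -1.27, -0.67 and -1.02, so Etv4 was higher in every line, an order that depends on the scale and on which transcripts are summed. On the CPM scale, with all transcripts summed and length not divided out, the mean log2 ratio turned to 0.41.

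Short transcripts annotated as noncoding held much of the Etv4 TPM. Of the 12 annotated Etv4 transcripts, 3 are protein coding, and the noncoding ones held 53.9%, 60.3% and 56.4% of the Etv4 TPM in lines 66, 67 and 72 but 22.5%, 25.6% and 23.2% of its estimated counts. The most abundant was Etv4-207, 882 bases long, with a mean of 16.0 TPM against 16.0 TPM for the coding Etv4-201 (2395 bases) and 13.8 TPM for the coding Etv4-202 (2377 bases). Of the 31-base words of Etv4-207, 73.8% also occur in the coding transcripts, so most of its sequence cannot separate it from them. Counting coding transcripts alone, Etv4 had 39.7, 23.3 and 30.6 TPM, and Etv5 was below it in line 66 and above it in lines 67 and 72 (log2 ratio of Etv5 to Etv4 of -0.16, 0.66 and 0.17). Noncoding transcripts held a larger share of TPM in Etv4 than in 91.9% of the 8303 coding genes averaging 10 TPM or more, whose median share was 8.89%.

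Dusp6 showed the same on a smaller scale. Its noncoding Dusp6-203, 876 bases long and sharing 92.2% of its words with the coding transcripts, held 25.5%, 28.6% and 25.9% of the Dusp6 TPM but 8.30%, 9.82% and 8.59% of its estimated counts, and with coding transcripts alone Dusp6 had 49.4, 27.5 and 41.4 TPM. Etv1 had the most annotated transcripts, 13, but 5 of them had at least 1 TPM in every line, against 6 of 12 for Etv4. Of the Etv1 TPM, Etv1-203 held 28.1%, 28.3% and 36.5% and Etv1-201 held 24.5% ± 2.39 (SD, n = 3). By estimated counts the order turned, with 47.3%, 44.8% and 47.5% for Etv1-201 (6576 bases) and 17.4%, 19.4% and 21.7% for Etv1-203 (2032 bases). Its shorter coding transcript Etv1-206 held 10.9%, 23.4% and 6.14% in lines 66, 67 and 72. Spry2, Spry4 and Dusp4 had 1 listed transcript each. Etv5-201 held 97.6% ± 0.99 of the Etv5 TPM, Spred1-201 96.3% ± 1.03 of the Spred1 TPM and Spred2-202 59.0% ± 0.25 of the Spred2 TPM. Spry1-203 and Spry1-201, both coding and starting 11 bases apart, held 73.3%, 55.5% and 73.4% and 23.4%, 41.6% and 21.5% of the Spry1 TPM, so line 67 differed from the others in the estimated split and not in being outermost in level.

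**Figure D2:**
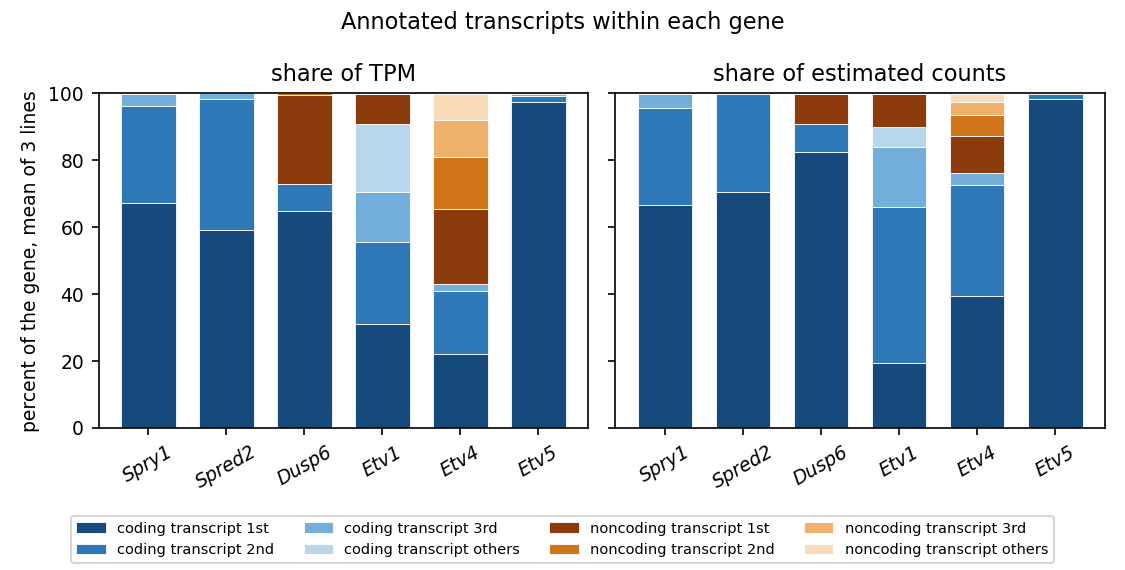
Percent of each gene held by its annotated transcripts, averaged over the 3 lines, as TPM (left) and as estimated counts (right); blue parts are coding and brown parts noncoding transcripts, in order of mean TPM, for the 6 genes named. Etv4 holds most of its TPM in noncoding transcripts (53.9% to 60.3% by line) but 22.5% to 25.6% of its counts, and Etv5 is nearly all Etv5-201.

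The lines were then compared gene by gene. Of the 9 members averaging 10 TPM or more, 1 (Dusp6) had its highest line over 1.5 times its lowest, where 9.79% of all 8428 such genes did. None of the 9 passed 2-fold, where 2.47% of all such genes did. Spry1, with a mean under 10 TPM, had a ratio of 1.53. The other ratios ran from 1.07 for Etv5 to 1.46 for Etv4, with a median of 1.29 over the 10 genes beside 1.18 over the 8428 genes. With estimated counts scaled by TMM, Etv4 passed 1.5-fold as well, at 1.60, where 8.82% of all compared genes passed. None of the members passed it without line 66, where 3.45% of all genes did, or without line 67, where 5.65% did. With 9 or 10 members, such counts are no result about these genes. Each line has 1 library, so these folds carry no replicate check.

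Of the 10 genes, 3 (Dusp6, Spred2 and Etv4) lie on chromosomes whose genes were high in line 66 as a whole. Relative to the mean of the other lines and to the median of all genes compared, the log2 ratio in line 66 had a median of 0.33 over the 699 genes of chromosome 11 and of 0.29 over the 427 genes of chromosome 10. In the same measure Etv4 had 0.48, which is 0.14 above the median of its chromosome, and Dusp6 had 0.55, which is 0.27 above. Spred2 had 0.18 which is -0.16 relative to the median of chromosome 11. In line 67, Dusp6 was at -0.64 where the median of chromosome 10 was -0.09, and Etv4 was at -0.39 where that of chromosome 11 was -0.20. The part of the chromosome shift in the levels of Dusp6, Etv4 and Spred2 was not tested. The other members lie on chromosomes with a median between -0.06 and -0.01 in line 66, and among them Spry4 (0.46) and Spry2 (0.31) were above and Spry1 (-0.38) and Spred1 (-0.30) below.

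**Figure D3:**
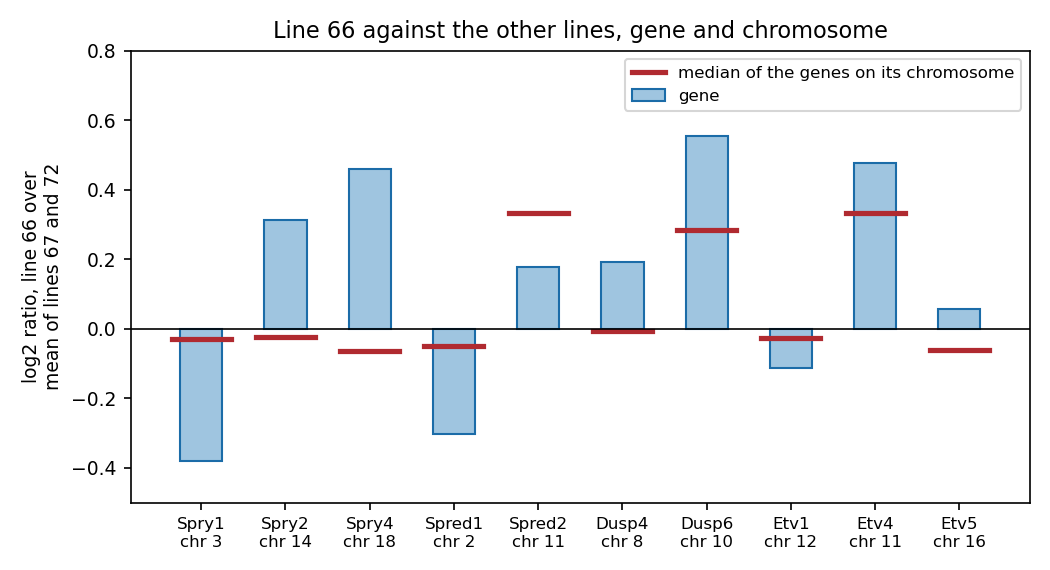
Log2 ratio of line 66 to the mean of lines 67 and 72 for each of the 10 genes (bars), relative to the median of all compared genes, with the median of the genes on the same chromosome (red lines). Dusp6 (0.55) and Etv4 (0.48) are the highest bars, on chromosomes whose medians are 0.29 and 0.33.

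The rest of the pathway was read from lists made from general knowledge. The receptors were led by Fgfr1 (66.3 ± 8.28 TPM), followed by Fgfr4 (31.3 ± 10.2 TPM), which is typical of myogenic cells, and Fgfrl1 (22.9 ± 2.49 TPM), a receptor without a kinase domain. These 3 of 7 receptor and co-receptor genes had at least 10 TPM in every line, and the co-receptor gene Klb had at most 3 counts. Fgfr4 had 22.8, 28.5 and 42.6 TPM in lines 66, 67 and 72, lowest and highest in the same lines as Spry1. Of the 7 receptor and co-receptor genes, 6 were highest in line 72. Of the 22 ligand genes, 2 had at least 10 TPM in every line, Fgf13 (33.9 ± 7.66 TPM) and Fgf11 (15.9 ± 0.41 TPM), and both encode intracellular proteins that do not act as secreted ligands. Fgf21, a secreted metabolic hormone, came next with 2.14, 5.24 and 6.76 TPM. Fgf4, Fgf14, Fgf16, Fgf17, Fgf18 and Fgf20 had at most 3 counts in every line, and 17 of the 22 had a mean below 1 TPM.

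Most genes of the cascade between receptor and feedback were measured at high levels. Of 11 adaptor and Ras genes, 9 had at least 10 TPM in every line, led by Nras (178 ± 19.7 TPM), the adaptor gene Grb2 (126 ± 15.4 TPM) and the phosphatase gene Ptpn11 (100.4 ± 7.87 TPM). Of 9 Raf, MEK, ERK and scaffold genes, 7 did, among them the MEK genes Map2k2 (123 ± 16.8 TPM) and Map2k1 (97.8 ± 10.5 TPM). The 16 genes of these lists averaging 10 TPM or more included none over 1.5-fold apart between lines, beside 9.79% of all such genes, and the other 4 genes of the lists averaged less than 10 TPM.

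Other brakes and targets varied more widely than the 10 genes in a few cases. Among 12 other brakes, 10 had at least 10 TPM in every line, led by Rasa1, a Ras inactivator (391 ± 74.5 TPM), Errfi1, a feedback inhibitor of the EGF receptor (261 ± 79.0 TPM), and Cav1, the caveolin-1 gene (40.8, 97.0 and 242 TPM in lines 66, 67 and 72). Cav1 was 5.93 times higher in line 72 than in line 66 and lies on chromosome 6, whose median log2 ratio in line 72 was 0.16. Among 12 other ERK targets, 7 had at least 10 TPM in every line, led by Ccnd1 (cyclin D1, 466 ± 49.7 TPM), Phlda1 (145, 91.5 and 78.5 TPM) and Fosl1 (101 ± 5.55 TPM). Among 11 measured relatives of the member families, Dusp1, a phosphatase gene of the immediate early response, led with 61.2, 25.0 and 32.5 TPM and was over 2-fold apart between lines, whereas Dusp5 (37.6 ± 0.34 TPM) and Dusp10 (32.7 ± 0.58 TPM) were nearly level. Dusp1 was highest in line 66 and lowest in line 67, as Dusp4, Dusp6 and Etv4 were. Cop1, which encodes a ubiquitin ligase that degrades ETV proteins, had 140 ± 8.91 TPM. Cic, the gene of the repressor capicua, had 53.6 ± 5.88 TPM, and Atxn1l, the gene of a capicua partner, had 19.7 ± 1.82 TPM. With coding transcripts alone, Cop1, Cic and Atxn1l averaged 103, 25.6 and 17.6 TPM.

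**Figure D4:**
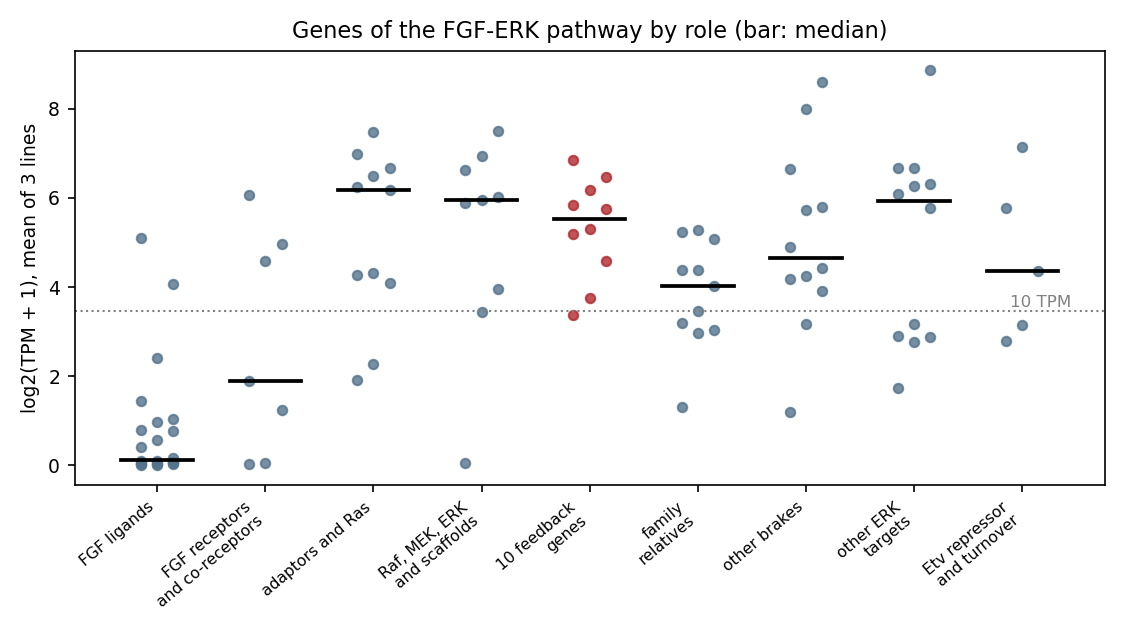
Mean log2(TPM + 1) over the 3 lines for each gene of the FGF-ERK pathway, by role; points are genes, black bars are medians, red points are the 10 feedback genes and the dotted line marks 10 TPM. The ligand genes have a median of 0.13, the adaptor and Ras genes 6.18 and the feedback genes 5.52.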

How the data were processed

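Poly-A RNA of 3 myoblast lines was sequenced with a stranded library kit. The authors deposited an estimated count and a TPM value for each transcript, in the layout of kallisto's output. The submitters' processing notes name bcl2fastq 2.20, fastp 0.20, kallisto 0.46.1 and the build GRCm39, without settings. Identifiers were matched to GENCODE M21 (GRCm38), the source of symbols and coordinates. It lacked 1112 of the 121798 transcripts, which were not used. TPM and counts were summed per gene, and 25510 genes with a TPM above 0 in some line were called detected. Levels of different genes were compared as TPM, with CPM as an alternative. Depth was 66972426 to 73274315 counts per library. The fold between lines was taken over genes averaging 10 TPM or more, without a test, since each line has 1 library. Members and lists were chosen with earlier results of these data known. Members were named in full; of each pathway list, up to 3 highest genes, those over 2-fold apart and those with at most 3 counts in every line were named. Nf1, Il17rd and Egr3 lie outside this rule and were named after their values were seen. A gene that the rule would name is not reported here. Spry3 had no match. Methods were tested on simulated counts. Alternatives were CPM, TMM (edgeR 4.0.16) and DESeq2 1.42.0 size factors on counts rounded to whole numbers, a mean of 1 TPM, pseudocounts, thresholds of 5 and 20 TPM, leaving out each line and, chosen after seeing the data, coding transcripts alone. Python 3.11.15, pandas 2.3.3, scipy 1.17.1 and R 4.3.3 were used.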

Additional observations from a re-analysis of the deposited data

How the results depend on the processing

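On the CPM scale, where transcript length is not divided out, the median level of the 10 genes was 6.46 in place of 5.49, and the log2 ratios were 1.44 in place of 0.43 for Spry4 to Spry1, -1.24 in place of -0.74 for Dusp6 to Dusp4, 0.74 in place of 1.62 for Etv4 to Etv1 and, with the direction turned, 0.41 in place of -0.99 for Etv5 to Etv4. With coding transcripts alone, chosen after seeing the data, these values were 5.19 for the median, -1.19 for Dusp6 to Dusp4, 0.54 for Etv4 to Etv1 and 0.22 for Etv5 to Etv4, again turned. The number of genes over 1.5-fold apart was 2 in place of 1 with TMM, with DESeq2's size factors and with coding transcripts alone (Dusp6 and Etv4 each time), beside 8.82%, 8.83% and 9.97% of all compared genes, and 2 with a mean of at least 1 TPM (Spry1 and Dusp6), where the share of all genes was 19.6% in place of 9.79%. It was between 0 and 1 when single lines were dropped, at 0 without line 66 and without line 67, beside 3.45% to 5.65% of all genes. The number over 2-fold was 0 in each of these settings, beside 0.986% to 7.16% of all genes. The number at 10 TPM in every line was 9 with each line dropped and with coding transcripts alone. At other thresholds, 10 genes reached 5 TPM, 8 reached 20 TPM and 10 reached 10 CPM in every line. The share of detected genes in these alternative settings was not computed, so these counts have no background beside them. The median with a pseudocount of 0.1 was 5.46. Of the 10 gene levels, 9 moved by more than the SD between lines with CPM and 3 with coding transcripts alone, and none of 30 did with a line left out. CPM is a different unit from TPM, so the 9 shifts say little about how firm a level is. Of 7 transcript shares, 5 moved when taken from counts. Dropping single lines gave 5.46 to 5.55 for the median and log2 ratios of 3.39 to 3.88 for Spry2 to Spry1, 0.15 to 0.71 for Spry4 to Spry1, 0.39 to 0.68 for Spred2 to Spred1, -0.87 to -0.59 for Dusp6 to Dusp4, -1.15 to -0.85 for Etv5 to Etv4 and 1.42 to 1.76 for Etv4 to Etv1. No paired analysis was possible because there is 1 group only. With 1 library per line, differences between lines cannot be told apart from those between cultures or preparations.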

Other observations

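Il17rd, which encodes the FGF signaling inhibitor Sef, was read with the other brakes and is named here after its values were seen, since its mean of 1.35 TPM lay below the level used for comparison. It had 1.92, 0.58 and 1.55 TPM in lines 66, 67 and 72, with 794, 217 and 588 estimated counts. Its highest line was 3.34 times its lowest, where 7.16% of all genes averaging 1 TPM or more were over 2-fold apart. Of the 10 feedback genes, Dusp4, Dusp6 and Etv4 were also lowest in line 67, whereas Spred1 and Etv5 were highest there. Egr3, an immediate early gene also named after its values were seen, had 7.24, 11.5 and 5.89 TPM.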
